A study of Homo sapiens with 13 samples.

Results

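CEACAM1, CEACAM5, CEACAM6 and CEACAM7 are cell adhesion molecules of the carcinoembryonic antigen family, and their transcripts were followed over a starvation time course of a lung cancer cell line. The members were the probesets whose platform annotation gives 1 of these 4 symbols, with the brightest probeset kept for each symbol. Each symbol had 1 probeset, so the 4 members were 4 of 15426 features with 1 gene symbol. Of the 4, 3 had a positive value on some array and entered the tests, and CEACAM7 did not. The genes were chosen by measured values, since their late change was in view when they were picked. Differences of 24 h and 48 h from 0 h, and of 48 h from 24 h, are therefore given for them as descriptions without a test.

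The cells were H1975, a human line derived from a lung adenocarcinoma, a non-small cell lung cancer. All groups had been kept overnight in medium without foetal calf serum before 0 h, so the 0 h cells were starved as well, and all then stayed in starvation medium without an added growth factor. RNA was hybridised to 13 GeneChip Human Gene ST arrays. Triplicate arrays were available for 0 h and 48 h and a pair for 24 h, whereas 0.5, 1, 2, 4 and 6 h had 1 array apiece. These single arrays carry replicate number 2 at 0.5 h and 6 h, 1 at 1 h and 2 h, and 3 at 4 h. Differences among these times are thus mixed with those of replicate number. No label says that arrays of 1 time point came from separate cultures, so the p-values speak only for the spread among these arrays, which may be technical. In such bulk RNA, fewer cells that make a transcript and less of it per cell cannot be told apart.

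The values are SCAN scores, for which each array is standardised on its own. A score near 0 is background, and differences in score are not log2 fold changes. Scores of different probesets cannot be ranked against each other, because probes differ in how strongly they bind. CEACAM genes are close paralogs and the probe sequences were not used here, so how far a probeset of 1 member also reads another member was not tested.

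Proteins of this family carry immunoglobulin-like domains on the outside of the cell and bind each other, on the same cell or between neighbouring cells. CEACAM1 crosses the membrane and, in its long-tailed form, holds tyrosine motifs inside the cell that recruit phosphatases. CEACAM5 is carcinoembryonic antigen itself, the serum tumour marker, and like CEACAM6 and CEACAM7 it is tied to the membrane by a glycosylphosphatidylinositol (GPI) anchor. CEACAM6 is known from many epithelia, from granulocytes and from lung adenocarcinoma, and CEACAM7 mainly from the epithelium of the colon.

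The 4 genes lie in 1 cluster on human chromosome 19, and the sequences just before their start sites show how alike they are. The stretches below are the 90 bases upstream of the start that RefSeq gives for each gene on GRCh38.p14, printed 5′ to 3′ on the strand of the gene. They lie at chr19:42528482-42528571 for CEACAM1 (minus strand), chr19:41708536-41708625 for CEACAM5 (plus strand), chr19:41755440-41755529 for CEACAM6 (plus strand) and chr19:41688271-41688360 for CEACAM7 (minus strand). Capitals mark CACGTG, an E-box palindrome, in CEACAM5 and CEACAM6, and CATGTG or its reverse complement CACATG in the other members.
CEACAM5: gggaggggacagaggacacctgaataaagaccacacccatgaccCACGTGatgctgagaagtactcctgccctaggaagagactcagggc
CEACAM6: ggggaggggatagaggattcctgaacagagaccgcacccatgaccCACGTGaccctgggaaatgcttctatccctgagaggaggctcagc
CEACAM1: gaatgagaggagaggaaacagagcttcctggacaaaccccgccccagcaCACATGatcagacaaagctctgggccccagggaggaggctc
CEACAM7: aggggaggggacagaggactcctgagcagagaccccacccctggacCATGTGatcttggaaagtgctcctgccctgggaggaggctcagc

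CACGTG began at -46 relative to the start in CEACAM5 and at -45 in CEACAM6, and it was not found in the 250 bases upstream of CEACAM1 or CEACAM7. Of 34788 distinct upstream windows of 250 bases, 6.31% hold CACGTG on either strand. CATGTG, read on both strands, is in 9.44% of windows, and began at -44 in CEACAM7 and at -41 in CEACAM1. GGGCGG, the GC box, was at -52 in CEACAM1, where it reads CCGCCC, and at -211 in CEACAM6, and 42.6% of windows hold it. TGACTCA, the AP1 site, was in none of the 4 windows against 4.21% of all. The longest run of A and G shared by CEACAM5, CEACAM6 and CEACAM7, GAGAGGGGAGGGGA, began at -95, -94 and -93 in turn and was not found upstream of CEACAM1, and 0.0489% of windows hold it on either strand. It also stands upstream of CEACAM3, CEACAM8 and 1 of the 2 starts of CEACAM21. In pairwise alignments of the 250 upstream bases, counted over 237 to 248 aligned bases with gaps left out, CEACAM5 was 78.1% identical to CEACAM6 and 84.0% identical to CEACAM7, and CEACAM6 was 80.2% identical to CEACAM7. CEACAM1 was 70.5% to 75.8% identical to the other members. These matches are letters in a window, chosen after the sequences were read, and are no evidence of a bound factor.

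Before the results, 2 arrays need naming. Replicate 1 at 0 h correlated at 0.982 and 0.983 with the other 0 h arrays over all tested features, while those correlated at 0.996 with each other. Its highest correlation, 0.994, was with the 2 h array, which in turn had no higher one. The 2 h array carries replicate number 1 as well, as do the 1 h array and an array each at 24 h and 48 h. The study's methods describe possible outlier arrays, put down to the magnesium concentration by assumption, and the exclusion of affected arrays, but do not say which they were. All arrays entered the main fit, and the members' main differences are also given without these 2 arrays. Marker genes fitted the label of the line: the 6 measured of 8 epithelial markers were all above 0.2 on every array, with a summed score of 9.53 to 11.2. The 6 measured of 8 granulocyte markers were all at 0.2 or below, with a summed score of -0.967 to -0.596, among them MPO at -0.252 to -0.109. Of 3 measured leukocyte markers, CD14 and LCP2 stayed near background and CD53 went from 0.135 at 0 h to 0.442 at 48 h, and its part in the results was not tested. Endothelial and fibroblast markers, 3 and 2 measured, stayed at 0.2 or below.

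CEACAM6 was lowest on the 0 h arrays, intermediate on the arrays up to 24 h and highest at 48 h. Its scores at 0 h were 0.2499, 0.230 and 0.231. The single arrays gave 0.371 at 0.5 h, 0.502 at 1 h, 0.378 at 2 h, 0.456 at 4 h and 0.314 at 6 h. The 24 h arrays read 0.602 and 0.549, and those of 48 h read 1.03, 0.967 and 1.02. Every later array lay above all 0 h arrays, and no 24 h array reached the 48 h range.

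The mean score of CEACAM6 was 0.237 ± 0.0111 (SD, n = 3) on the 0 h arrays. It reached 0.576 ± 0.0375 (SD, n = 2) on the 24 h pair and 1.01 ± 0.0350 (SD, n = 3) in the last group. The difference between 48 h and 0 h was 0.770 SCAN units with a standard error of 0.0337, rank 7 among rises of 12764 tested features. Ranks of members, here and below, reflect that they were chosen with late change in view, and are no support for it. At 24 h CEACAM6 stood 0.338 ± 0.0377 (SE) above 0 h, which is 44.0% of the 48 h difference. The 48 h mean stood 0.431 ± 0.0377 (SE) above that of 24 h, rank 3 among the rises between 24 h and 48 h. Ordered by level, the times ran 0, 6, 0.5, 2, 4, 1, 24 and 48 h. Only 0.5 h and 2 h, 0.00706 apart, lay closer to each other than the residual SD of 0.0286. The times from 0.5 h to 6 h are single arrays of differing replicate number, so their order among themselves was not tested.

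CEACAM5 was near background up to 6 h and was clearly higher only on the 24 h and 48 h arrays. Its 0 h scores were 0.166, 0.162 and 0.0758, a mean of 0.135 ± 0.0509 (SD, n = 3). It read 0.164 at 0.5 h, 0.167 at 1 h, 0.124 at 2 h, 0.214 at 4 h and 0.168 at 6 h. The 24 h arrays read 0.351 and 0.336, and those of 48 h read 0.684, 0.552 and 0.674. The early arrays overlapped the 0 h range, whereas both late groups lay above it and apart from each other.

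The 48 h mean of CEACAM5 was 0.637 ± 0.0737 (SD, n = 3), 0.502 above 0 h with a standard error of 0.0436, rank 45 among rises. The 24 h mean of 0.344 ± 0.0103 (SD, n = 2) stood 0.209 ± 0.0488 (SE) above 0 h, 41.6% of the 48 h difference. The difference of 48 h from 24 h was 0.293 ± 0.0488 (SE), rank 13. In order of level, 2, 0, 0.5, 1, 6 and 4 h were neighbours separated by less than the residual SD of 0.0569, and 24 h and 48 h followed with larger gaps. The shares of the 48 h difference already present at 24 h, 44.0% for CEACAM6 and 41.6% for CEACAM5, were not tested against each other.

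CEACAM1 was well above background throughout, somewhat lower at 0 h, and alike at 24 h and 48 h within its spread. It read 0.616, 0.567 and 0.609 at 0 h, a mean of 0.597 ± 0.0264 (SD, n = 3). The single arrays from 0.5 h to 6 h lay between 0.674 and 0.7001. The pair of 24 h arrays gave 0.744 and 0.727, and the last group 0.770, 0.718 and 0.699. All later arrays were above the highest 0 h array, and the 24 h and 48 h arrays overlapped.

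The CEACAM1 mean at 48 h was 0.729 ± 0.0368 (SD, n = 3), 0.132 above 0 h with a standard error of 0.0339, rank 1256 among rises. At 24 h the difference from 0 h was 0.138 ± 0.0379 (SE), and from 24 h to 48 h the means differed by -0.00589 ± 0.0379 (SE). After quantile normalisation of the arrays these were 0.0932 and 0.0391. Among the single times from 0.5 h to 6 h, neighbours in level lay within the residual SD of 0.0291 of each other, and so did 24 h and 48 h.

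CEACAM7 was not detected above background. Its score was below 0 on all 13 arrays, from -0.143 on the 0.5 h array to -0.0190 on 0 h replicate 3. Its 0 h arrays averaged -0.0568 ± 0.0425 (SD, n = 3) and its last group -0.0830 ± 0.0374 (SD, n = 3), with overlapping ranges. All neighbours in its order of levels lay within the residual SD of 0.0385. CEACAM7 stayed at background on the arrays where the adjacent CEACAM5 and CEACAM6, alike in their upstream bases, were high. Whether its transcript was absent or its probes bind weakly was not tested.

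**Figure D1:**
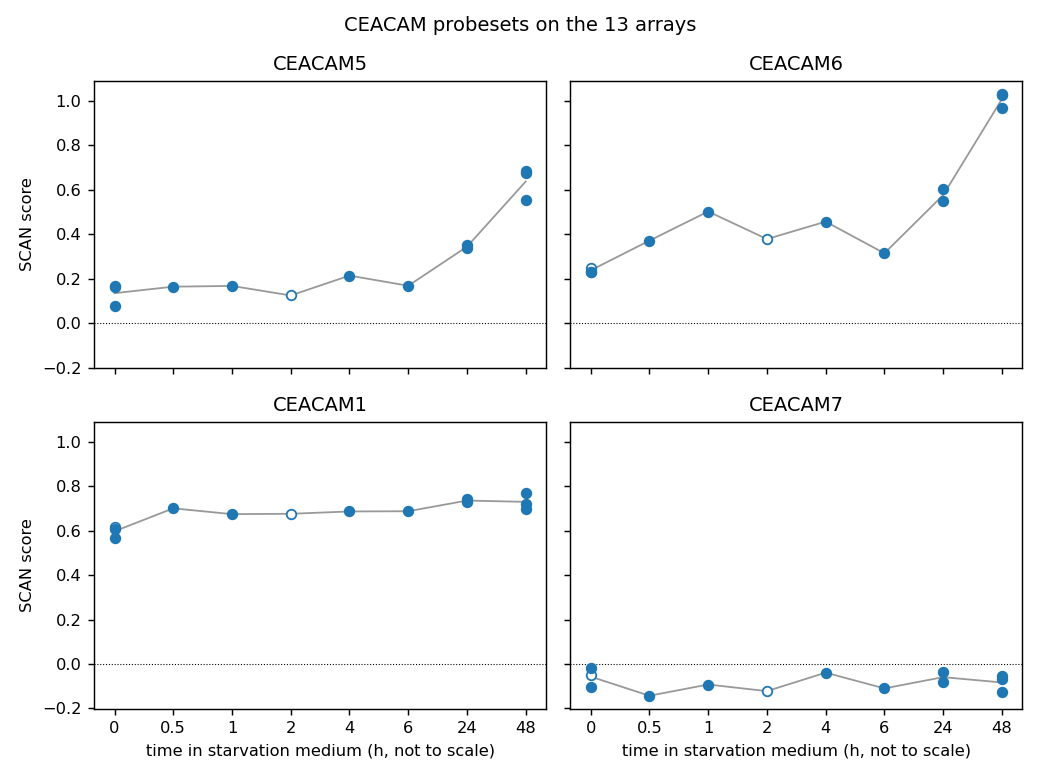
SCAN score (y axis) of the 4 CEACAM probesets on each of the 13 arrays by hours in starvation medium (x axis, evenly spaced). Points are arrays, open points are 0 h replicate 1 and the 2 h array, and grey lines join the means of each time point. CEACAM6 and CEACAM5 stood at 1.01 and 0.637 at 48 h, CEACAM1 stayed between 0.567 and 0.770, and CEACAM7 was below 0 throughout.

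These differences can be read against the whole table. Between 48 h and 0 h, limma called 2406 of 12764 features (18.8%) at an adjusted p under 0.05, 1209 higher (9.47%) and 1197 lower (9.38%). For 24 h against 0 h 653 features were called higher (5.12%), and for 48 h against 24 h 66 (0.517%). Without 0 h replicate 1 and the 2 h array these counts were 1618 (12.8%) and 323 (2.55%), and after quantile normalisation they were 392 and 91. All 48 h arrays lay above every 0 h array for CEACAM1, CEACAM5 and CEACAM6, as for 17.6% of tested features, and all 24 h arrays likewise, as for 23.3%. Without 0 h replicate 1 and the 2 h array the 48 h differences from 0 h were 0.142 for CEACAM1, 0.518 for CEACAM5 and 0.776 for CEACAM6, and those of 24 h were 0.147, 0.225 and 0.345.

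The early arrays are the part of the course on which the choice of genes did not rest, although they share the 0 h arrays with it. Against 0 h, the mean of 0.5 h and 1 h was 0.199 higher for CEACAM6 (SE 0.0377), 0.0901 higher for CEACAM1 (SE 0.0379) and 0.0309 higher for CEACAM5 (SE 0.0488). None passed over all features by limma, with adjusted p of 0.403, 0.528 and 0.874. No feature of the whole table did (0 of 12764), and 1152 (9.03%) had an unadjusted p under 0.05 in the same limma fit, CEACAM6 and CEACAM1 among them. The median difference over all tested features was 0.0205, and 0.000716 after quantile normalisation. CEACAM6 was then 0.166 higher, CEACAM1 0.0479 and CEACAM5 0.0124, with adjusted p of 0.801, 0.854 and 0.967 by limma.

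Whether the early CEACAM6 difference was called depended on which arrays were kept and how they were weighted. Without 0 h replicate 1 and the 2 h array the early difference was 0.206 with an adjusted p of 0.0421 by limma, 1 of 27 features called higher (0.213%) there. Leaving out only 0 h replicate 1 gave 0.206 and 0.0419, and weighting arrays by their quality gave 0.204 and 0.0410. Over all alternatives the adjusted p by limma ranged from 0.0410 to 0.801. The replicates of CEACAM6 itself hardly differed at 0 h, with 0.2499 on replicate 1 against 0.230 and 0.231.

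For the mean of 4 h and 6 h against 0 h, the differences were 0.148 for CEACAM6 (SE 0.0377), 0.0896 for CEACAM1 (SE 0.0379) and 0.0562 for CEACAM5 (SE 0.0488). Without 0 h replicate 1 and the 2 h array they were 0.154, 0.0989 and 0.0718, with adjusted p by limma of 0.108, 0.280 and 0.549. On all 13 arrays the adjusted p by limma were 0.956, 0.965 and 0.965, and again 0 of 12764 features were called. In the same limma fit 619 (4.85%) had an unadjusted p under 0.05, CEACAM6 and CEACAM1 among them. All 5 arrays of 0.5 h to 6 h lay above every 0 h array for CEACAM1 and CEACAM6, which was so for 336 of 12764 tested features (2.63%). After quantile normalisation the same 2 members showed it, but the share of all tested features that did so there was not computed. Without 0 h replicate 1 and the 2 h array CEACAM5 joined them, but then 19.0% of all features did so. This pattern and both checks were chosen after seeing the data.

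**Figure D2:**
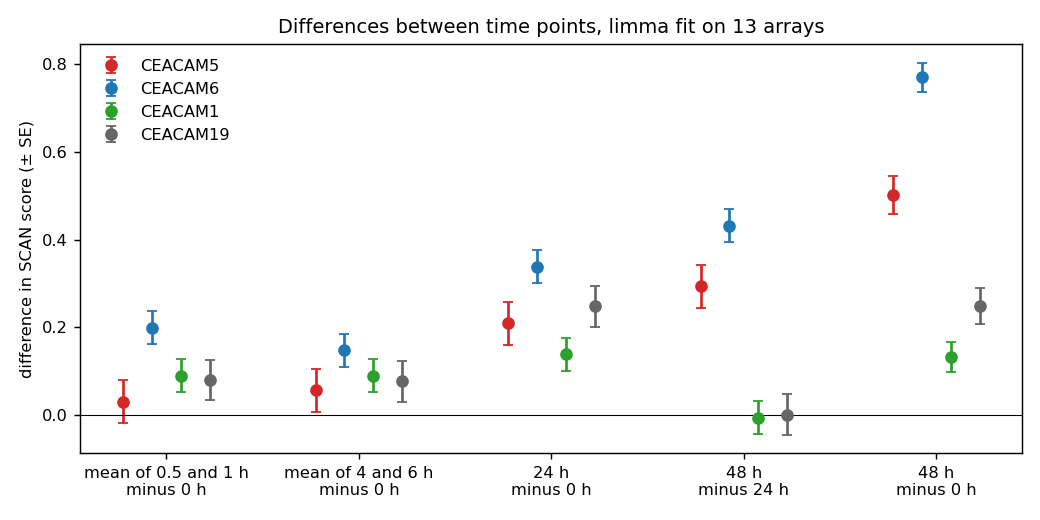
Difference in SCAN score (y axis) for 5 comparisons of time points (x axis) for CEACAM5, CEACAM6, CEACAM1 and CEACAM19; points are estimates of the limma fit on 13 arrays and bars are 1 standard error. CEACAM6 and CEACAM5 were 0.431 and 0.293 higher at 48 h than at 24 h, whereas CEACAM1 and CEACAM19 differed by -0.00589 and 0.00112.

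The gene lists used from here on were drawn up with earlier results of these data known. Their p-values are therefore not independent support. Of 8 other CEACAM genes, 7 had a probeset and 5 were tested. At 48 h 1 of these was called higher and 0 lower, beside 9.47% and 9.38% of all tested features. The gene called higher was CEACAM19, a transmembrane member of the family. Its 0 h arrays read 0.676, 0.597 and 0.725. The 24 h pair gave 0.908 and 0.919, and the last group 0.965, 0.912 and 0.869. The late groups lay above all 0 h arrays and overlapped each other.

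CEACAM19 rose by 0.249 from 0 h to 48 h (SE 0.0413, adjusted p = 0.00181 by limma) and by 0.248 from 0 h to 24 h (SE 0.0461, adjusted p = 0.0109 by limma). Between 24 h and 48 h it differed by 0.00112 (SE 0.0461, adjusted p = 0.996 by limma). The rest of the family was at background. CEACAM3, a phagocytic receptor of granulocytes, had a mean of -0.00755 at 0 h and -0.0508 at 48 h. CEACAM8, the granulocyte marker CD66b, had -0.245 and -0.163 and was below 0 on all arrays, as was CEACAM21 with -0.1097 and -0.112. CEACAM4 had 0.00146 and -0.0254, CEACAM16, a protein of the inner ear, -0.0357 and -0.0133, and CEACAM20 -0.0356 and -0.0466.

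**Figure D3:**
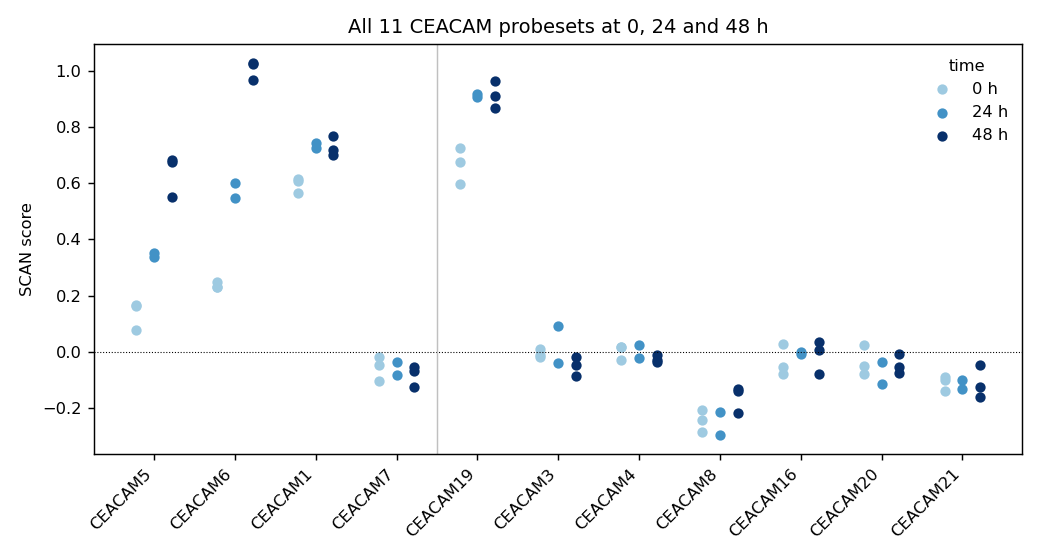
SCAN score (y axis) of all 11 CEACAM probesets (x axis) at 0, 24 and 48 h; each point is an array and shade gives the time. The 4 members are left of the vertical line. Only CEACAM6, CEACAM1 and CEACAM19 at all times shown, and CEACAM5 at 24 and 48 h, lay clearly above 0. The late arrays of these 4 genes were above their 0 h arrays.

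The pregnancy-specific glycoproteins are the sister group of the CEACAM genes, secreted mainly by the placenta and encoded in the same cluster. Of 11 such genes 9 were tested, 0 were called higher and 1 lower at 48 h, beside 9.47% and 9.38% of all tested features. The median difference was -0.0319 against -0.00173 over all tested features. The called gene was PSG2, which fell from 0.211 ± 0.0493 to 0.0654 ± 0.0131 (SD, n = 3 each; difference -0.146, SE 0.0355, adjusted p = 0.0157 by limma). Its call was lost when 0 h replicate 3 or any 1 of the 48 h arrays was left out, with adjusted p of 0.0504 to 0.0681 by limma.

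Of 40 genes within 10 annotated genes of a member in the RefSeq order, 14 had a probeset and 10 were tested, 1 called higher and 0 lower, with a median difference of -0.00486. This is near the 9.47% and 9.38% called over all tested features. CEACAM7, CEACAM5 and CEACAM6 follow one another directly, and CEACAM3, next to them on the other side of 1 noncoding gene, was at background. The called neighbour was CXCL17, a mucosal chemokine, which lies 3 genes from CEACAM1. Its means were 0.597 ± 0.0369 on the 0 h arrays, 1.13 ± 0.0254 on the 24 h pair and 1.54 ± 0.0580 in the last group (SD, n = 3, 2 and 3). Over the full course it rose by 0.946 (SE 0.0390, adjusted p = 3.57e-07 by limma). RPS19, a ribosomal protein gene of the same stretch, had 1.98 at 0 h and 2.04 at 48 h.

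**Figure D4:**
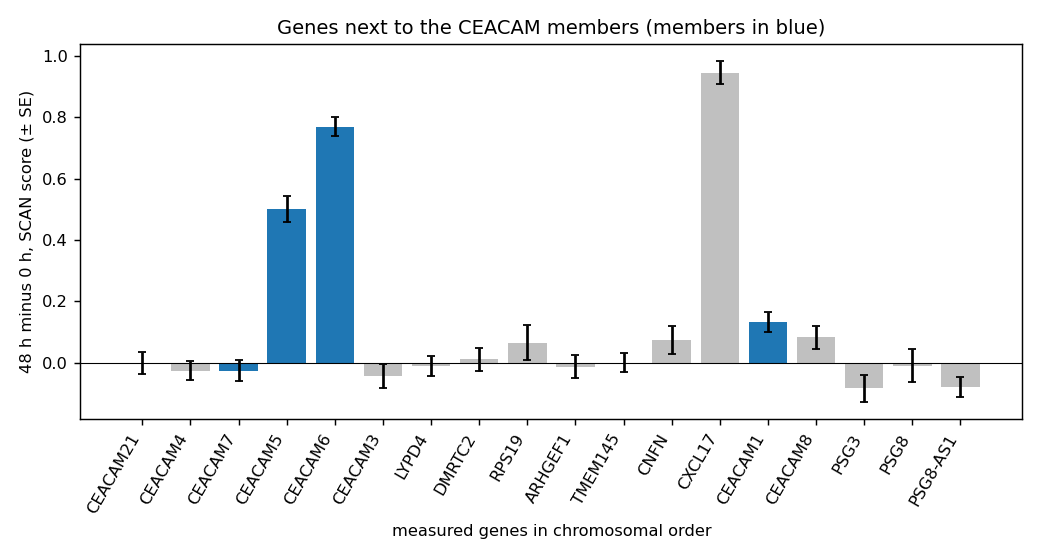
Difference in SCAN score between 48 h and 0 h (y axis) for the 18 measured genes among the members and their chromosomal neighbours, in chromosomal order (x axis, not to scale). Bars are estimates of the limma fit without a filter on dim features, error bars are 1 standard error, and members are blue. CXCL17 (0.946), CEACAM6 (0.770) and CEACAM5 (0.502) have the tallest bars of the 18. Members were chosen with this difference in view, and bar heights also depend on how strongly the probes bind.

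Of 17 genes for proteins that bind CEACAM proteins or signal with them, 8 had a probeset and 7 were tested. At 48 h 2 were called higher and 2 lower, where 18.8% of all tested features were called in either direction. EGFR, the receptor of epidermal growth factor, which CEACAM1 is known to contact, rose from 2.47 ± 0.0345 to 2.69 ± 0.0134 (SD, n = 3 each; adjusted p = 0.00114 by limma). LYN, a SRC family kinase, rose from 1.93 to 2.11 (adjusted p = 0.0100 by limma). HNRNPM, an RNA-binding protein known as a receptor of carcinoembryonic antigen on liver macrophages, fell from 2.20 to 1.91 (adjusted p = 0.000459 by limma). ANXA2, a membrane-binding annexin, fell from 1.61 to 1.44 (adjusted p = 0.00528 by limma).

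CEACAM5 and CEACAM6 need the GPI pathway, most of which was not measured in the annotated features. Of 29 genes of anchor synthesis and attachment 6 had a probeset. Beside 9.47% and 9.38% of all tested features, 1 of these was called higher and 0 lower. It was PGAP3, which remodels the lipid of the anchor, whose mean score went from 0.440 ± 0.100 to 0.715 ± 0.101 (SD, n = 3 each; adjusted p = 0.00771 by limma).

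Among other GPI-anchored surface proteins 30 of 44 were tested, with 8 higher and 4 lower, beside 9.47% and 9.38% of all tested features, and a median difference of 0.0325. When single arrays were left out the higher count was 6 to 8 and the lower 1 to 4, the latter 1 without 48 h replicate 1 and 2 without 0 h replicate 3, either 24 h array or 48 h replicate 3. BST2, the antiviral tetherin, rose by 0.534 (SE 0.0497, adjusted p = 3.41e-05 by limma). ULBP1, a stress ligand of natural killer cells, rose by 0.513 (SE 0.0593, adjusted p = 0.00015 by limma), and EFNA1, an ephrin, by 0.313 (SE 0.0362, adjusted p = 0.00015 by limma). Those named among the lower genes were LYPD1 (-0.209, adjusted p = 0.00627 by limma), MELTF, the melanotransferrin gene (-0.225, adjusted p = 0.0115 by limma), and RECK, an inhibitor of matrix metalloproteinases (-0.171, adjusted p = 0.0359 by limma). The RECK call was lost in 6 of the 8 fits that left out 1 array, and that of MELTF without 48 h replicate 1.

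Adhesion molecules of the immunoglobulin superfamily, the wider class to which CEACAM proteins belong, included genes called in both directions. Of 48 listed 30 were tested, 9 higher and 1 lower, where 9.47% and 9.38% of all tested features were, and the difference from that share was not tested. The median difference was 0.0732 against -0.00173 over all tested features. Without 48 h replicate 2 the higher count was 5. ICAM1, the ligand of leukocyte integrins, rose from 1.11 ± 0.0190 on the 0 h arrays to 1.72 ± 0.0282 in the last group (SD, n = 3 each; adjusted p = 4.11e-06 by limma), with 1.58 ± 0.108 (SD, n = 2) between them. VSIG1, a junction protein of gastric epithelium, rose from 0.486 to 1.01 (adjusted p = 4.34e-06 by limma), and NECTIN4, a nectin of epithelial junctions, from 0.556 to 0.873 (adjusted p = 0.000232 by limma). CLMP, a tight junction protein, fell from 0.305 to 0.119 (adjusted p = 0.00692 by limma). Transcription factors reported at CEACAM promoters gave 0 higher and 0 lower calls among 9 tested of 12, by limma on all 13 arrays. Of all tested features 18.8% were called in either direction.

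The features whose courses were most like those of the members were found by the root mean square difference over 13 arrays, after the 0 h mean of each feature was subtracted. For CEACAM6 these were ENTPD3, an ectonucleotidase (0.0910), SFTPA1, a surfactant protein (0.0957), and ICAM1 (0.103). SFTPA1 went from 0.248 at 0 h to 1.09 at 48 h and ENTPD3 from 0.752 to 1.41. For CEACAM5 they were the matrix metalloproteinases MMP13 (0.0533) and MMP28 (0.0549), and OSMR, a receptor of oncostatin M (0.0587). MMP28 went from 0.353 to 0.910 and MMP13 from 1.53 to 2.04. CEACAM5 and CEACAM6 differed from each other by 0.168 on this measure. It uses unscaled scores, so it depends on the size of each change as well as on its course.

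For CEACAM1 the most alike were SPPL3, an intramembrane protease (0.0273), AZI2, an adaptor of the kinase TBK1 (0.0316), and the noncoding DLGAP1-AS1 (0.0325), each with a similarly small change from 0 h to 48 h. Those of CEACAM7 were SWINGN (0.0255), KIF1A (0.0270) and PCOLCE-AS1 (0.0280), which like it were near background. Such likeness is a description over 13 arrays of which 8 belong to replicated time points.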

How the data were processed

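Total RNA of H1975 cells was measured on 13 arrays. The deposited values have the unit score: per the study's methods, the authors preprocessed the arrays with SCAN, which treats every array separately, and probes were mapped with the platform annotation. No statement on further scaling between arrays was found in the sources used here. A noise threshold after the study's scores was computed but is not reported, because the members were chosen for their distance from 0 h. The SCAN version and the genome build are not given in the sources used here. Array medians lay between 0.0621 and 0.0798, and the number of arrays limits the precision.

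Of 39937 features, 15426 had 1 gene symbol, all matched to RefSeq by Entrez ID. Features with no positive value (2662) were left out, and 12764 were tested, of which 167 repeat the values of another. limma 3.58.1 (lmFit and eBayes) in R 4.3.3 was fitted over all 13 arrays with 1 level per time point and 5 residual degrees of freedom. Tests were two-sided, and p-values were adjusted by Benjamini-Hochberg across the 12764 features with a threshold of 0.05. Rank among rises orders all tested features by their difference, which also depends on how strongly the probes bind. The script was tested on simulated data. Tables and figures were made with Python 3.11.15, pandas 2.3.3, numpy 2.4.6 and matplotlib 3.10.9, and upstream sequences were aligned with Biopython 1.88.

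The members and gene lists were chosen with earlier results of these data known. Named were the members, every measured CEACAM gene, up to 3 called genes per list and direction with the smallest adjusted p, and the 3 features most like each member. RPS19 and single markers were named after their values were seen. Replicate numbers were not treated as pairs in the main fit. Alternatives covered filters, scaling between arrays, an intensity trend in the variance, weights per array, a block for the replicate number, and arrays left out.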

Additional observations from a re-analysis of the deposited data

How the results depend on the processing

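No called result reversed under any alternative run, and among the member differences that of CEACAM1 from 24 h to 48 h, near 0, changed sign, with a range of -0.0264 to 0.0391. The count of called features at 48 h against 0 h, 2406, was 1519 to 3418 when 1 array was left out. At 24 h against 0 h, 936 features became 2006 with array weights, 2185 without 0 h replicate 1 and the 2 h array, and 87 to 2181 when 1 array was left out. From 24 h to 48 h, 319 became 1277, 1270 and 76 to 1269 under the same settings. For the mean of 4 h and 6 h against 0 h the 0 calls became 11, 26 and 0 to 26, and for 0.5 h and 1 h they became 17, 28 and 0 to 28. The CEACAM6 difference for 0.5 h and 1 h, 0.199, passed the threshold with array weights (0.204), without both arrays (0.206) and without 0 h replicate 1 (0.206, the top of a range of 0.196 to 0.206 over single arrays left out).

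With the replicate number as a block, 443 features were called at 24 h against 0 h and 187 from 24 h to 48 h, and 2043 at 48 h against 0 h. Deviations of same-numbered arrays at 0 h and 48 h correlated at -0.0787, -0.146 and -0.00853. At 0 h and 24 h they correlated at 0.0675 for replicate 1 and -0.00193 for replicate 3. No pairing by number was seen in these values, but so few arrays, with 0 h replicate 1 apart, cannot exclude it. Of the calls at 24 h against 0 h, 69.8% were higher, and after quantile normalisation 49.5%; from 24 h to 48 h these shares were 20.7% and 31.6%. Quantile normalisation moved CEACAM6 at 24 h from 0.338 to 0.298. CEACAM7 entered only the fit without a filter, with -0.0263 (SE 0.0353) at 48 h. Leaving out 0 h replicate 1 gave 1 pregnancy-specific glycoprotein called higher and 1 transcription factor called lower. The single arrays from 0.5 h to 6 h have no replicates, and scores near 0 carry no measurable level.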
